A study of Mus musculus with 10 samples.

Results

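The regions described here were the 1083 of 50039 open chromatin regions (OCRs) that were most open in group 2 innate lymphoid cells (ILC2s) of the mouse lung. They were chosen from the read counts alone. Each count was divided by the size factor of its library (the median of ratios over regions), L was the log2 of that normalized read count plus 1, and a region was kept where the lower L of the 2 lung libraries lay at least 0.2 above the highest L of the other 8 libraries. That distance is called the margin below. Since the rule used every lung value and its distance from all other libraries, the height of these regions in lung is given as a description without a test. Tests were made only between the other 4 tissues, which the rule did not order. The same rule kept 3226 regions for bone marrow (BM), 1718 for small intestine (SI), 1334 for pancreas, and 1035 for large intestine (LI).

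ATAC-seq, in which the Tn5 transposase cuts open DNA, had been performed on ILC2s of lung, pancreas, BM, LI, and SI, with 2 libraries per tissue. All mice were wild-type C57BL/6 males aged 6 weeks. Each library was made from 50000 sorted ILC2s, and a replicate is a pool of mice, 16 for a library of BM, pancreas, or lung and 10 for a library of either intestine. From lung, pancreas, and LI, lineage-negative cells positive for CD45, CD127, ST2, and CD25 were sorted, from BM lineage-negative cells by ST2 and CD25, and from SI lineage-negative cells by CD127, Thy1, CD45, and KLRG1. BM cells were taken on another sorter. Lung, pancreas, and LI thus shared the gate and the sorter, and lung and pancreas also the pool size, whereas for BM and SI the tissue and its gate cannot be told apart. The dissociation of the organ differed between lung and each other tissue, and it cannot be told apart from the tissue. In a bulk library, fewer cells with an open region and less opening per cell cannot be told apart either.

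ILC2s are tissue-resident lymphocytes that respond to alarmins such as IL-33 and produce IL-5 and IL-13, and the lung is one of their best known sites in airway inflammation. Distal OCRs are commonly enhancers, where transcription factors bind short sequence motifs. TGF-β binds a receptor pair that phosphorylates SMAD3, which joins SMAD4 and binds the box CAGAC or its reverse complement GTCTG. The shorter core GTCT followed by its reverse complement AGAC forms the SMAD palindrome GTCTAGAC.

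A search for 25 motifs in the central 300 bp of every region, on both strands and in letters of the reference genome, gave this palindrome the highest ratio of its share among the lung-most-open regions to its share of all regions. By the difference of the shares, the box CAGAC was further above all regions than the palindrome. The palindrome contains neither CAGAC nor GTCTG, but a box beside it can share letters with it. The windows of 120 bp printed next are centred on the palindrome, which is in capitals together with any CAGAC or GTCTG, and belong to the 4 lung-most-open regions with the largest margins among those that hold it. They are on the plus strand of mm10, whose chromosome lengths match the GRCm38.p6 sequence used here.
Olfr9 (chr10:128984899-128985018): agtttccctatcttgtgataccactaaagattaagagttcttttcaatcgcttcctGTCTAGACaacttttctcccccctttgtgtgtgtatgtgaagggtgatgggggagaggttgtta
Amph (chr13:19162302-19162421): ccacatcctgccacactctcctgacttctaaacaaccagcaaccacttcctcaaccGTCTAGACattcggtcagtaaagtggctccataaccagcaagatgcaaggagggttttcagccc
Zfp706 (chr15:36963107-36963226): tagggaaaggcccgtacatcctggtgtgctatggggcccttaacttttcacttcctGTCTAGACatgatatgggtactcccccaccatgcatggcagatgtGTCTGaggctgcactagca
Chst2 (chr9:95316948-95317067): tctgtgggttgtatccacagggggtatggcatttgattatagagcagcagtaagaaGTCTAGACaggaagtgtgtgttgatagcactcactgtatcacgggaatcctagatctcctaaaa

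The next 2 windows are the central 300 bp of regions that hold many single boxes, again with CAGAC and GTCTG in capitals and on the plus strand of mm10. The regions at *Sema6d* and *Prox1* are shown for their large margins with 4 boxes each. The region at *ccdc198*, with 5 boxes and a margin of 1.49 between those of *Sema6d* and *Prox1*, is not printed, since its boxes stand in copies of 1 tandem repeat, which was not masked.
Sema6d (chr2:124637370-124637669): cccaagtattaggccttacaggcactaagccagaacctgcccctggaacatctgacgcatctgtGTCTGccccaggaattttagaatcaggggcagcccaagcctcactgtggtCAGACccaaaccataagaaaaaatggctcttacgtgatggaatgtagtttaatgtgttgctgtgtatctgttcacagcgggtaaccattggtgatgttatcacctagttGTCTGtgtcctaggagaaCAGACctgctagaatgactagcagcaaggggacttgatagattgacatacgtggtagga
Prox1 (chr1:190067266-190067565): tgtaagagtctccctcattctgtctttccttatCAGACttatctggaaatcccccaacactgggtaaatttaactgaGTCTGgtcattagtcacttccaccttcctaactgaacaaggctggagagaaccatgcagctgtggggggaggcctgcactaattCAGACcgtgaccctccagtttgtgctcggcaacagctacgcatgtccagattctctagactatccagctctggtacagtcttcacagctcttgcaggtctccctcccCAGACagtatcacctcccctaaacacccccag

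The libraries differed in depth, with 10282987 to 32797872 counts over all regions, of which the region with the most counts took 1.78% to 9.0%. Lung replicate 2 was the deepest library and pancreas replicate 2 the shallowest. At the lung-most-open regions the median count was 310 and 509 in the lung libraries and between 62 and 144 in the other 8, so that most of these regions were counted well in every library. Before the results, the sorted cells were checked against marker genes. Over the promoters of 10 of 12 ILC2 marker genes, among them *Gata3*, *Rora*, *Il1rl1*, and *Il7r*, the summed normalized read count was 7214 and 7941 in the lung libraries and 5228 to 9105 in the other 8. Markers of 11 other cell types were also summed over their promoters. For none of the 8 types with a promoter in the table was the lung sum above the highest other library. The sum over *Foxj1* and *Cdh1* of the epithelium was 522 to 674 in lung and 413 to 849 elsewhere, and none of the surfactant genes *Sftpa1*, *Sftpb*, *Sftpc*, and *Sftpd* had a promoter region in the table. Endothelial promoters (2 of 8 marker genes) summed to 402 to 448 in lung and 353 to 848 elsewhere. For fibroblasts, *Pdgfra* alone of 6 genes had a promoter region, with 274 to 331 and 224 to 357. Myeloid promoters (3 of 11 genes) summed to 549 to 569 and 488 to 867. B cell promoters (2 of 6 genes) summed to 89.4 to 95.1 in lung and 97.0 to 482 elsewhere. T cell promoters (3 of 6 genes) summed to 352 to 493 and 214 to 989. The *Gzma* promoter of NK cells had 6.01 to 18.8 and 11.9 to 122, and erythroid promoters (3 of 6 genes) summed to 98.0 to 102 and 125 to 934. The paper names *Gzma* as a feature of SI ILC2s, and the SI libraries had 120 and 122. *Gzma* alone therefore cannot tell NK cells from ILC2s. No marker of neutrophils, ILC3s, or mast cells had a promoter region in the table.

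The median margin of the 1083 regions was 0.39 on the log2 scale, with an interquartile range of 0.27 to 0.61 and a highest value of 2.09. A margin of at least 0.5 was reached by 378 regions, of at least 1 by 67, and of at least 1.5 by 11. Against the tissue means of edgeR, the median log2 difference was 0.88 over pancreas, 0.99 over LI, 1.34 over BM, and 1.37 over SI, and the same medians over all 49981 regions with a count lay between -0.05 and -0.01. The lung libraries differed from each other by a median of 0.20 in L at these regions and of 0.22 over all regions. Just inside the threshold, the regions nearest to *Litaf*, *Mnat1*, and *Lonrf3* had margins of 0.2002, 0.2002, and 0.2001, and just outside it the regions nearest to 2410004P03Rik, *Riox1*, and 1810073O08Rik had margins of 0.1999, 0.1997, and 0.1991. The number of regions depends on the lung library with the lower value, which was more often replicate 1. With lung replicate 2 as the only lung library, 2372 regions passed the rule, and with replicate 1 as the only one 1602 passed.

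**Figure D1:**
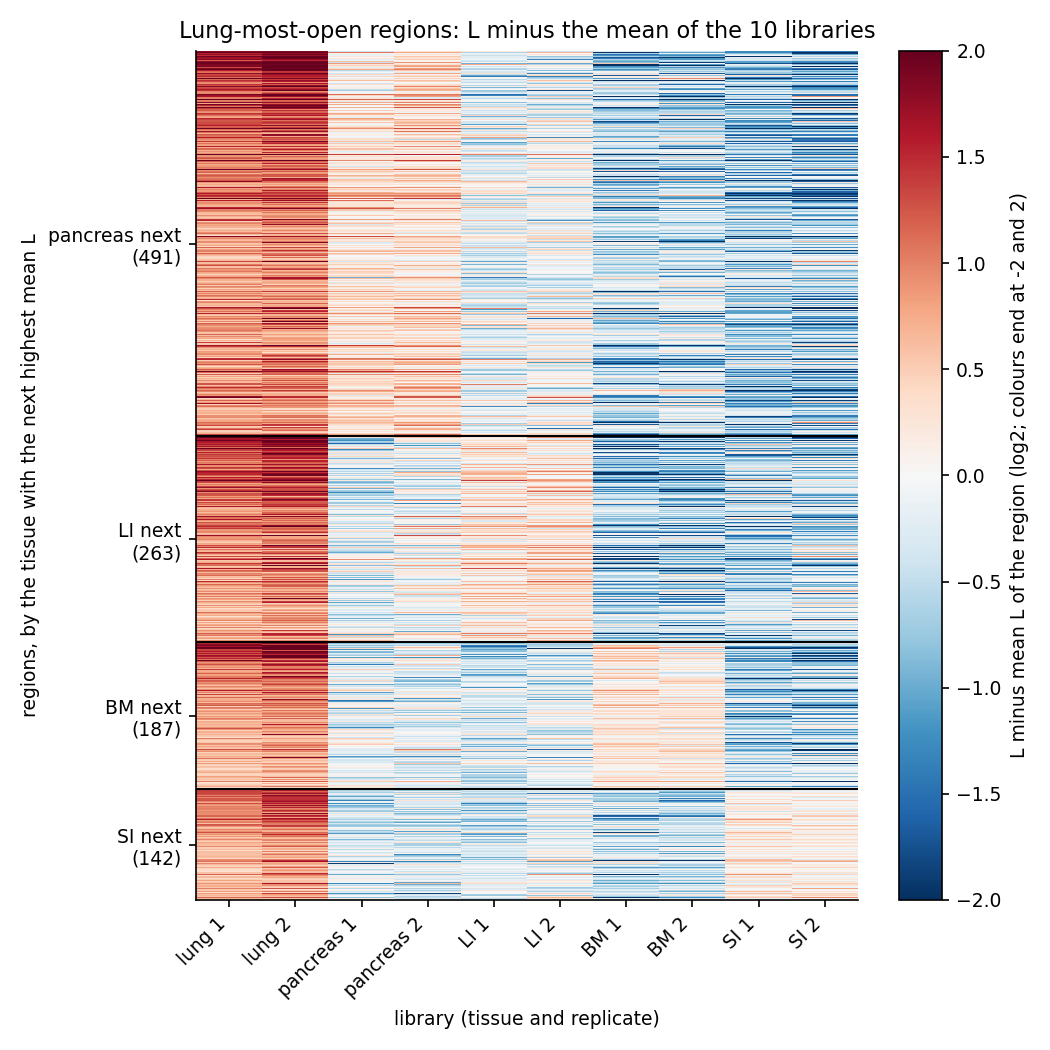
Each row is 1 of the 1083 lung-most-open regions and each column a library, coloured by L minus the mean L of the region over the 10 libraries (log2 scale, with colours ending at -2 and 2). Rows are grouped by the tissue with the next highest mean L (491 for pancreas, 263 for LI, 187 for BM, and 142 for SI) and sorted by margin, and the lung columns are the reddest in each group because the rule chose them so.

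The lung-most-open regions were not equally closed elsewhere. Pancreas was the tissue with the next highest mean L at 491 regions (45.3%) and LI at 263 (24.3%), whereas over all regions pancreas came highest among these 4 tissues at 22.2% and LI at 18.3%. BM came next at 17.3% and SI at 13.1%, beside 33.7% and 25.8% of all regions. The lowest tissue was SI at 42.7% and BM at 36.2%, beside 25.2% and 30.8% of all regions. These shares are descriptions, and the differences among the 4 tissues were tested next.

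Between pancreas and SI, edgeR called 293 of the lung-most-open regions higher in pancreas (27.1%), where 12.0% of all tested regions were called, and 35 lower (3.23%), where 8.45% of all were called. Between pancreas and BM, 259 were higher in pancreas (23.9%, beside 14.3% of all regions) and 25 lower (2.31%, beside 9.89%). The median log2 difference of pancreas over SI was 0.44 at these regions and -0.06 over all regions, and that of pancreas over BM was 0.37 and -0.01. Calls are at an adjusted p under 0.05 of edgeR's quasi-likelihood test with Benjamini-Hochberg adjustment over all tested regions. With library size alone as the scaling, 76.7% of the calls between pancreas and SI were higher in pancreas, and with the TMM scaling of the fit above 89.3% were. Leaving out a library lowered the number of calls by more than 1.5 times in 4 cases. The 328 calls between pancreas and SI became 205 without pancreas replicate 1 and 204 without pancreas replicate 2, and the 284 calls between pancreas and BM became 159 without pancreas replicate 2 and 133 without BM replicate 1.

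LI was compared with the same tissues. It was higher than BM at 250 regions (23.1%, beside 18.3% of all regions) and lower at 58 (5.36%, beside 12.6%). LI was higher than SI at 176 regions (16.3%, beside 6.9%) and lower at 10 (0.923%, beside 1.53%). The median log2 difference of LI over SI was 0.36 at these regions and -0.02 over all. The 308 calls between LI and BM became 198 without LI replicate 2 and 177 without BM replicate 1, and the 186 calls between LI and SI became 114 without LI replicate 1 and 95 without LI replicate 2.

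Pancreas and LI differed at few regions. Pancreas was higher at 29 (2.68%, beside 1.25% of all regions) and LI at 17 (1.57%, beside 2.01%). These 46 calls rested on every library of the pair, since 3, 9, 24, and 7 were left without pancreas replicate 1, pancreas replicate 2, LI replicate 1, and LI replicate 2, and 75 and 74 were made without SI replicate 1 and SI replicate 2. SI and BM, each more often the lowest tissue here than pancreas or LI, were split. SI was higher at 143 regions (13.2%, beside 15.1%) and BM at 165 (15.2%, beside 10.7%). That split turned with library size alone, under which 62.1% of the calls were higher in SI in place of 46.4%. Without BM replicate 1 or BM replicate 2, 195 and 191 of these 308 calls were made. At least 1 of the 6 contrasts was called at 586 of the lung-most-open regions (54.1%), beside 49.8% of all regions.

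**Figure D2:**
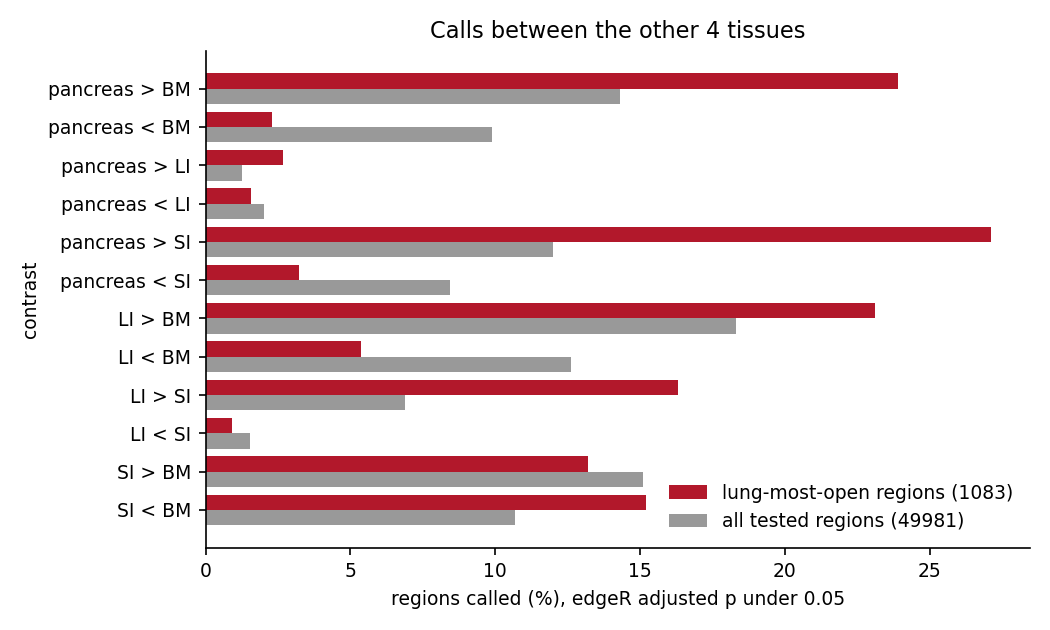
Bars give the percentage of the 1083 lung-most-open regions (red) and of all 49981 tested regions (grey) called in each direction between the 4 tissues other than lung, by edgeR at an adjusted p under 0.05. The longest red bars are pancreas over SI (27.1%), pancreas over BM (23.9%), and LI over BM (23.1%).

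Most of the regions lay away from promoters. A region was called a promoter where its centre lay from 1000 bp before to 100 bp after a transcription start site (TSS). Of the 1083 regions, 69 were promoters (6.37%), beside 19.2% of all regions. A gene body held 649 (59.9%) and 365 were intergenic (33.7%). Within gene bodies, 598 regions were intronic and 51 exonic. The median distance to the nearest TSS was 20.5 kb, compared with 10.4 kb over all regions and 16.3 kb over all regions outside promoters. The sets of the same rule in pancreas and LI held 5.397% and 3.67% promoters. The regions were of usual width and GC content, with a median of 526 bp and 49.0% GC beside 532 bp and 49.8% over all regions. The median GC of the pancreas and LI sets was 46.1% and 44.9%. More than 20 CpG dinucleotides were in 8.86% of the lung-most-open regions and 28.2% of all regions. Outside promoters these shares were 5.23% and 15.2%. Each region is named here by the gene with the nearest TSS, which is not a measurement of the gene it regulates. With the GENCODE genes of the same assembly, 56.1% of the lung-most-open regions kept the nearest gene that RefSeq gave, and 86.4% kept their class.

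**Figure D3:**
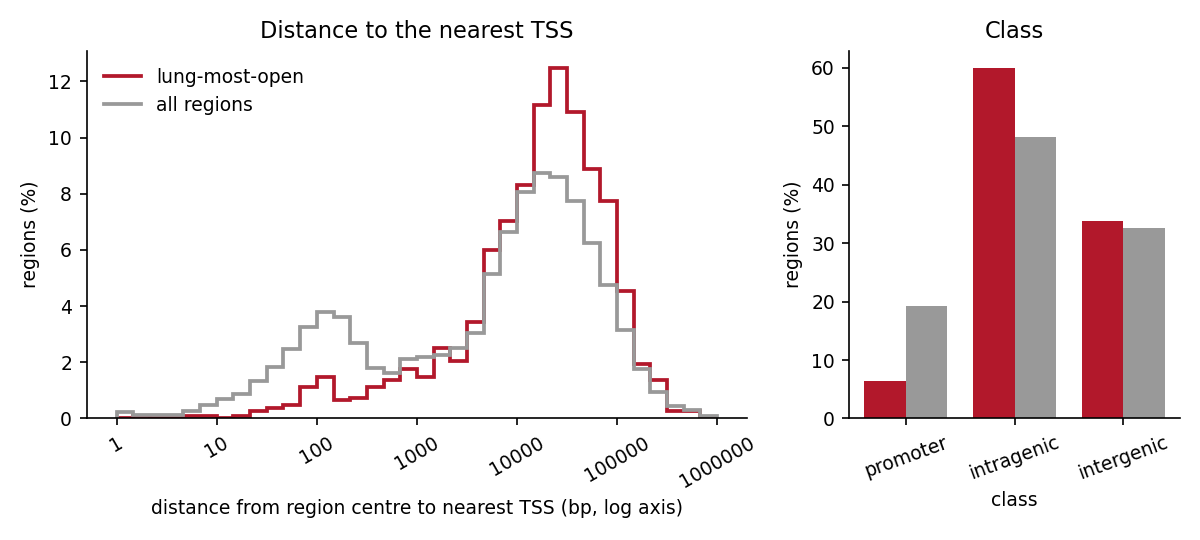
The left panel gives the percentage of regions by distance from the region centre to the nearest TSS (bp, log axis) for the lung-most-open regions (red) and all regions (grey), and the right panel the percentage in each class. The red line has a smaller peak near the TSS and a larger one at 10 to 100 kb, and 6.37% of the lung-most-open regions and 19.2% of all regions were at promoters.

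Among the 69 promoter regions, the largest margin was at the noncoding RNA gene 9230112J17Rik (chr9:60545924-60546632), where the normalized read count was 448 and 330.1 in the lung libraries, 98.6 and 96.6 in pancreas, 94.9 and 76.4 in LI, 108 and 104 in BM, and 117 and 86.2 in SI. The 8 other libraries lay close together and below both lung libraries. At the promoter of *Adgrf5*, an adhesion G protein-coupled receptor gene, it was 459 and 447 in the lung libraries, 184 and 218 in pancreas, 71.2 and 102 in LI, 45.6 and 61.4 in BM, and 39.3 and 31.9 in SI. Here pancreas lay between lung and the rest, and was higher than LI (log2 difference of pancreas over LI 1.18, adjusted p = 0.0308), BM (log2 difference of pancreas over BM 1.92, adjusted p = 0.000216), and SI (log2 difference of pancreas over SI 2.49, adjusted p = 2.77e-05). The promoter of *Camk2n1*, an inhibitor of the kinase CaMKII, had 588 and 609.9 in the lung libraries and between 173 and 351 in the other 8, and that of *Ccl1*, a chemokine gene, had 692 and 690.2 in the lung libraries and between 204 and 494 in the other 8. At *Ccl1* the highest of the other libraries were those of pancreas (474 and 494), which was higher than SI (log2 difference of pancreas over SI 1.18, adjusted p = 0.00371). Further promoter regions were at *Fez1*, *Mtmr7*, *Slc22a8*, *Ttll9*, and *Ache*, the acetylcholinesterase gene, with margins between 0.54 and 0.75.

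The largest margin of all, 2.09, was at an intergenic region 4.93 kb from *Olfr9*, an olfactory receptor gene (chr10:128984649-128985311). It holds the first palindrome printed above. Its raw counts were 446 and 813 in the lung libraries and 15 to 85 in the others. The normalized read count was 349.7 and 444 in the lung libraries, 47.5 and 35.7 in pancreas, 25.4 and 24.0 in LI, 78.6 and 56.7 in BM, and 81.6 and 50.9 in SI. LI was the lowest tissue, and was lower than BM (log2 difference of LI over BM -1.43, adjusted p = 0.00711) and SI (log2 difference of LI over SI -1.40, adjusted p = 0.0221). All 3 regions nearest to *Olfr9* were lung-most-open, and with their neighbours they formed a run of 5 over 34.5 kb in which no other region lay.

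Next in margin came an intron 7 region of *Shank2*, a scaffold protein gene of synapses, whose nearest TSS is that of the gene model Gm14372. The normalized read count there was 151 and 202 in the lung libraries, 30.9 and 25.2 in pancreas, 37.3 and 28.3 in LI, 33.0 and 24.2 in BM, and 20.2 and 5.43 in SI, and no contrast among the other tissues was called. An intron 4 region of *Dhx32* had 121 and 125 in the lung libraries and between 8.82 and 33.9 in the other 8. A region 139 kb from *Tcim* had 444 and 483 in the lung libraries, 116 and 128 in pancreas, 62.7 and 46.3 in LI, 101 and 112 in BM, and 24.0 and 10.9 in SI. At this region pancreas and BM held intermediate values and SI the lowest, with pancreas above SI (log2 difference of pancreas over SI 2.84, adjusted p = 4.27e-05) and SI below BM (log2 difference of SI over BM -2.63, adjusted p = 6.83e-05). An intron 5 region of the semaphorin gene *Sema6d*, whose sequence with 4 boxes is printed above, had 140.3 and 209 in the lung libraries, 26.1 and 33.6 in pancreas, 23.7 and 42.9 in LI, 3.88 and 3.72 in BM, and 15.4 and 2.71 in SI. It was nearly closed in BM, below LI (log2 difference of LI over BM 3.16, adjusted p = 0.00282) and pancreas (log2 difference of pancreas over BM 2.93, adjusted p = 0.00797). Of the 20 regions with the largest margins, 11 were called in at least 1 contrast among the other tissues, where 49.8% of all regions were called, and pancreas was next to lung at 8 of them.

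The regions with the highest level in lung were not those with the largest margin. A region in intron 7 of the hair keratin gene *Krt83* (chr15:101485851-101486435) was among the highest in lung and had a margin of 1.29, with a normalized read count of 1537 and 2069 in the lung libraries, 542 and 512 in pancreas, 307 and 602 in LI, 629 and 574 in BM, and 227 and 206 in SI. Lung lay far above all others and SI lowest, with SI below BM (log2 difference of SI over BM -1.45, adjusted p = 0.000697). All 3 regions nearest to *Krt83* were lung-most-open, in a run of 5 over 35.3 kb with those of *Krt86* and *Krt88*. Intronic regions of *Arhgap31*, *Chd9*, and *Cotl1* had lung values of 2199 and 1992, 1455 and 1845, and 1512 and 1759, against 858 to 1466, 676 to 1026, and 818 to 1067 in the other libraries.

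Many lung-most-open regions were neighbours on the genome. They were nearest to 774 genes, of which 68 had at least 3, and these 68 genes took 257 regions. With a gap of up to 50 kb, 526 regions (48.6%) lay in chains of at least 2, and 75 chains held at least 3. Regions of 1 gene or chain are neighbours and not independent of each other. Genes with a lung-most-open region had a median of 6 regions of any kind, compared with 2 over all genes with a region, so that these counts are also set beside the number of regions at each gene.

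The gene with the most was *Ldlrad4*, which encodes a membrane protein that restrains TGF-β signalling by binding SMAD2 and SMAD3. It had 10 lung-most-open regions of 31, all intronic, over 297 kb. At the region with its largest margin, in intron 3, the normalized read count was 608 and 736 in the lung libraries, 251 and 202 in pancreas, 163 and 211 in LI, 79.6 and 89.3 in BM, and 145 and 121 in SI. Pancreas and LI held the next values, above BM (log2 difference of pancreas over BM 1.44, adjusted p = 0.000802 for pancreas and log2 difference of LI over BM 1.18, adjusted p = 0.00241 for LI). Other *Ldlrad4* regions had another order. An intron 3 region had 536 and 773 in the lung libraries, 178 and 176 in pancreas, 69.5 and 109 in LI, 278 and 219.5 in BM, and 77.7 and 59.7 in SI, with BM above LI (log2 difference of LI over BM -1.42, adjusted p = 0.00161) and SI (log2 difference of SI over BM -1.84, adjusted p = 0.000248). A region of the same intron nearer to a TSS had 584 and 737 in the lung libraries, 118 and 98.7 in pancreas, 259 and 354 in LI, 74.7 and 66.0 in BM, and 88.3 and 127 in SI, with LI above pancreas (log2 difference of pancreas over LI -1.52, adjusted p = 0.00645), BM, and SI. The tissue next to lung was thus pancreas, BM, and LI at these 3 regions.

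*Pmepa1*, a TGF-β-induced gene of the same protein family that also binds SMADs and dampens the signal, had 5 of 10. Together with a region of *Zbp1* they formed a chain of 6 of the 7 regions in 78.1 kb. The strongest *Pmepa1* region, in intron 1 (chr2:173263519-173264175), had 1183 and 1328 in the lung libraries, 597 and 466 in pancreas, 695 and 705 in LI, 446 and 344 in BM, and 601 and 625 in SI. At its promoter the values were 872 and 839 in the lung libraries and between 237 and 621 in the other 8, and at an intergenic region 30.9 kb upstream 436 and 580.4 in the lung libraries and between 62.4 and 258 in the other 8, with SI lowest there and below BM (log2 difference of SI over BM -1.77, adjusted p = 0.000159). *Ext1*, which encodes a polymerase of heparan sulfate, had 6 of 19 in its intron 1, and 5 of these, which are neighbours at 1 gene, were called higher in pancreas than in SI, where 12.0% of all regions were called. *Zcchc14* had 6 of 9 and shared a chain of 8 with *Fbxo31* and *Map1lc3b*. At an intron 1 region of *Zcchc14* the normalized read count was 793 and 781 in the lung libraries, 353 and 382 in pancreas, 161 and 233 in LI, 19.4 and 40.0 in BM, and 45.1 and 14.2 in SI. It was close to closed in BM and SI, below pancreas (log2 difference of pancreas over BM 3.63, adjusted p = 1.51e-05 for BM and log2 difference of pancreas over SI 3.68, adjusted p = 1.29e-05 for SI).

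The microRNA gene *Mir7661*, inside *Itpr1*, the gene of a calcium channel of the endoplasmic reticulum, had 7 of 29, all in introns of *Itpr1*. Of these, the region in intron 44 had 738 and 906 in the lung libraries and between 97.9 and 326 in the other 8. The gene model Gm11211 near *Rgs3*, a regulator of G protein signalling, had 7 of 14, with 1103 and 1335 in the lung libraries and between 484 and 663 in the other 8 at the strongest. *Zmiz1*, a transcriptional coactivator gene, had 5 of 19, all in intron 1, with 645 and 984 in the lung libraries and between 160.0 and 423 in the other 8 at the strongest. *Sorl1*, a sorting receptor gene, had 5 of 8 and *Ubash3a*, a negative regulator of antigen receptor signalling, 4 of 7. *Camk2n1* had 4 of 6 and *Hlf*, a leucine zipper factor of the PAR family, 4 of 13. *Mir1903* had 4 of 11, of which 2 lay in intron 12 of *Nrp1*, the gene of a coreceptor of semaphorins and VEGF. *Rbpj*, the DNA-binding factor of the Notch pathway, had 3 of 26 and *Rora* 3 of 29.

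Of the TGF-β and BMP signalling genes, 36 in number with 205 regions, 8 genes had 17 lung-most-open regions (8.29%), where the share over all regions was 2.16%. The list was drawn up with earlier results of these libraries known, so the share is only described. Over all 205 regions, the smallest of the 4 log2 differences of lung over another tissue had a median of -0.21, compared with -0.41 over all regions, and was above 0 at 66 regions (32.2%, beside 14.4% of all). Of the receptors, *Tgfbr2*, the TGF-β type II receptor, had an intron 4 region with 431 and 599 in the lung libraries, 151 and 134 in pancreas, 115 and 133 in LI, 231 and 212 in BM, and 289 and 224 in SI. Pancreas and LI were the lowest tissues at this region, each below SI (log2 difference of pancreas over SI -0.85, adjusted p = 0.0263 for pancreas and log2 difference of LI over SI -1.03, adjusted p = 0.0182 for LI). *Bmpr1a*, a BMP type I receptor, had a promoter region with 463 and 476 in the lung libraries and between 180.4 and 354 in the other 8.

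Among the signal carriers, *Smad3*, which the receptor phosphorylates, had an intron 1 region (chr9:63703352-63703869) with 542 and 592 in the lung libraries, 310.2 and 439 in pancreas, 131 and 136 in LI, 156 and 198 in BM, and 35.5 and 27.1 in SI. Pancreas was next to lung and SI lowest, with pancreas above SI (log2 difference of pancreas over SI 3.58, adjusted p = 8.86e-07) and above LI (log2 difference of pancreas over LI 1.47, adjusted p = 0.00546). *Smad4*, the common partner, had 3 of its 4 regions in the set, all in intron 1. The strongest had 911 and 1053 in the lung libraries, 434 and 393 in pancreas, 778 and 543 in LI, 312 and 228 in BM, and 632 and 413 in SI. BM was the lowest tissue at each of the 3, and LI was higher than BM at each, as at the strongest (log2 difference of LI over BM 1.31, adjusted p = 0.00115). *Smad4* intron 1 was therefore ordered otherwise than *Smad3* intron 1, where SI was lowest.

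The inhibitors of the pathway held the remaining regions besides *Pmepa1*. *Ski*, a corepressor that binds SMADs, had 4 of 10, all in intron 1. The one with the largest margin had 479.8 and 607 in the lung libraries, 171 and 151 in pancreas, 147 and 213 in LI, 248 and 162 in BM, and 155 and 155 in SI, and no contrast among the other tissues was called there. Another *Ski* region had 667 and 536 in the lung libraries, 442 and 399 in pancreas, 220.4 and 197 in LI, 372 and 370.2 in BM, and 127 and 127 in SI, with SI lowest and below pancreas (log2 difference of pancreas over SI 1.72, adjusted p = 5.7e-05). *Skil*, the related corepressor, had an intergenic region with low values, 56.5 and 62.8 in the lung libraries and between 13.6 and 32.1 in the other 8. *Smad7*, the inhibitory SMAD, had an intron 3 region with 607 and 555 in the lung libraries and between 309 and 433 in the other 8. Across the 17 regions, 9 were called in at least 1 of the 6 contrasts, where 49.8% of all regions were called, and the next tissue was LI at 6, BM at 4, SI at 4, and pancreas at 3.

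**Figure D4:**
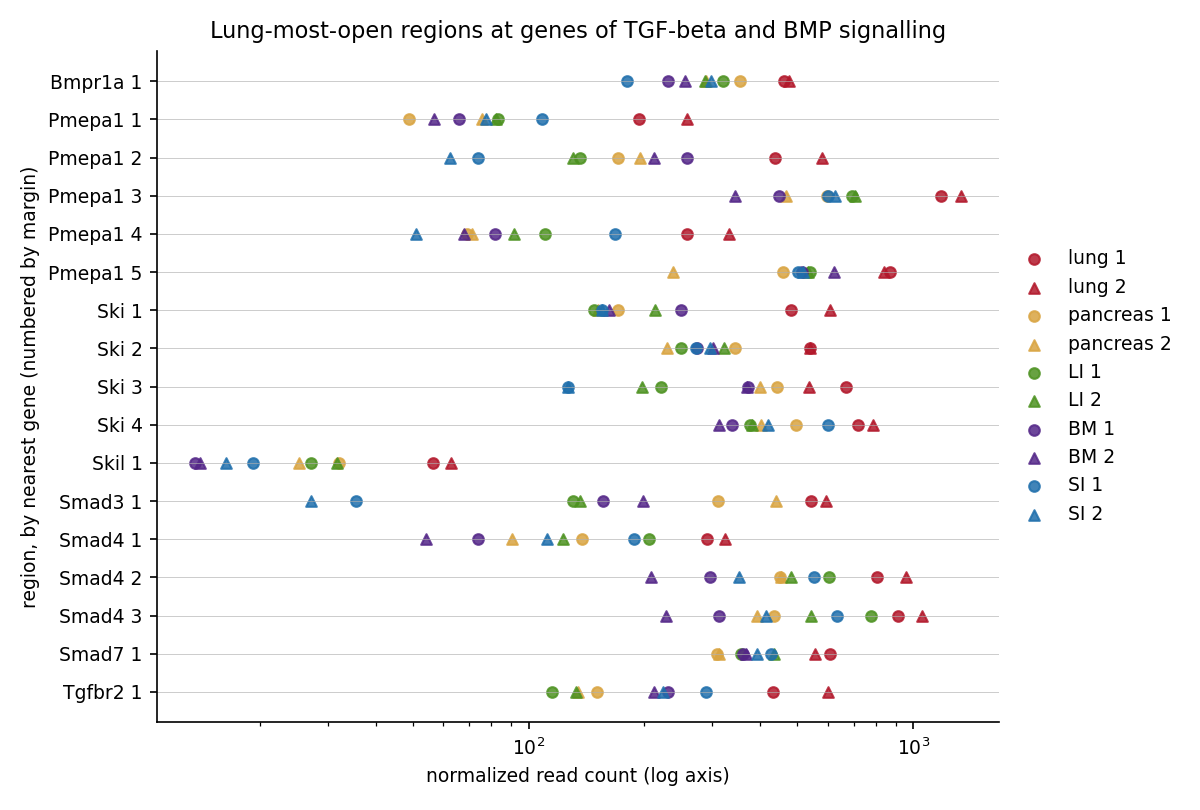
Each row is 1 of the 17 lung-most-open regions nearest to a gene of TGF-β or BMP signalling, numbered by margin within its gene, and each point the normalized read count of a library (log axis), with colours for tissues and circles and triangles for replicates 1 and 2. The red lung points are rightmost in each row as the rule requires, and the order of the other tissues changes from row to row, with SI (35.5 and 27.1) lowest at *Smad3* and BM (312 and 228) lowest at *Smad4* 3.

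Over all 25 motifs, the palindrome GTCTAGAC had the highest ratio of its share in the lung-most-open regions to its share in all regions, both counted outside promoters. It was in the central 300 bp of 34 lung-most-open regions (3.14%) and of 187 regions of any kind (0.374%). The sets of the same rule held it in 0.150% (pancreas), 0.290% (LI), 0.403% (BM), and 0.291% (SI) of their regions. Of the 187 regions with the palindrome, 18.2% were lung-most-open. The other 153 did not pass the rule, so the palindrome alone does not mark these regions. The median log2 difference of lung over another tissue across the 187 was 0.30 for pancreas, 0.37 for LI, 0.27 for BM, and 0.45 for SI. The single box CAGAC was in 72.4% of the lung-most-open regions and 53.9% of all regions, and outside promoters in 72.7% and 55.4%. From these same libraries, the paper had already reported a SMAD motif as enriched in its lung-specific OCRs, so these counts are not independent of that result. By RT-PCR the paper also found *Smad4* mRNA significantly higher in lung ILC2s.

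The share of regions that were lung-most-open was higher where a region held more boxes. It was 1.30% of the 23045 regions without a box, 2.103% with 1 box, 3.12% with 2, 4.55% with 3, and 12.6% of the 905 regions with at least 4. With bases masked as repeats left out of the search, a setting added after the data were seen, these shares were 1.44%, 2.24%, 3.32%, 5.09%, and 11.9%. For the BM set the share stayed between 5.97% and 6.59% from 0 to at least 4 boxes, and for the pancreas set it was 2.85% without a box and 1.66% with at least 4. For the LI set it was 2.09% and 1.66%. For the SI set it was 3.01% without a box, 3.76% with 1, and 3.87% with at least 4. Within the lung-most-open regions, the palindrome was in 9 of 348 with a margin under 0.3 (2.59%), 5 of 357 up to 0.5 (1.40%), 14 of 311 up to 1 (4.50%), and 6 of 67 with a margin of at least 1 (8.96%). The box was in 69.8%, 69.7%, 76.2%, and 82.1% of these groups. These are matches of letters, and binding of a SMAD was not measured.

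**Figure D5:**
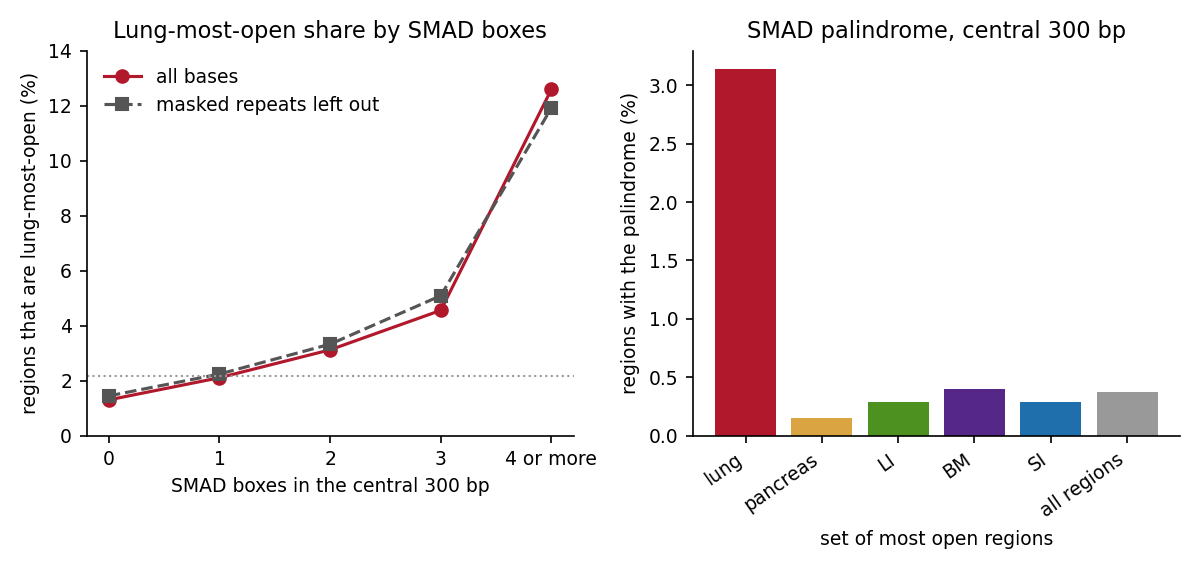
The left panel gives the percentage of regions that were lung-most-open by the number of SMAD boxes in the central 300 bp, counted over all bases (red circles, 1.30% to 12.6%) and without masked repeats (grey squares, 1.44% to 11.9%), with the share over all regions (2.16%) dotted. The right panel gives the percentage of regions with the SMAD palindrome, which was 3.14% in the lung set, at most 0.403% in the sets of the other tissues, and 0.374% in all regions.

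Besides the region at *Olfr9*, the palindrome was in the following regions. At *Amph*, 214 kb from the TSS, the normalized read count was 290.1 and 358 in the lung libraries, 91.5 and 60.9 in pancreas, 66.1 and 66.1 in LI, 62.1 and 42.8 in BM, and 101 and 92.3 in SI. At the intergenic region nearest to *Zfp706* it was 343 and 405 in the lung libraries and between 33.9 and 139.7 in the other 8, at that nearest to *Chst2*, a sulfotransferase gene, 1024 and 1083 in the lung libraries and between 103 and 499.8 in the other 8, and at intron 4 of *Chmp6*, an ESCRT-III gene, 296 and 348 in the lung libraries and between 26.5 and 174 in the other 8. The median margin of the 34 was 0.62, compared with 0.39 for the lung-most-open regions without the palindrome. At *Chst2* and *Chmp6* the pancreas libraries held the highest of the other values (357 and 499.8 at *Chst2* and 174 and 162 at *Chmp6*), and at *Zfp706* BM replicate 1 did.

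Other motifs were counted in the same windows, and AP-1 sites also by the tissue next to lung. The AP-1 site TGANTCA was in 22.7% of the lung-most-open regions and 18.3% of all regions, whereas it was in 36.7% and 49.6% of the pancreas and LI sets. Where LI was next to lung, 33.1% of the regions held it, where pancreas was next 24.4%, where SI was next 13.4%, and where BM was next 10.7%. Over all regions grouped by the highest of the same 4 tissues, the shares were 31.7%, 27.1%, 14.2%, and 8.41%. The box CAGAC was at 73.1%, 68.1%, 76.5%, and 72.5% of the lung-most-open regions with pancreas, LI, BM, and SI next, and at 51.3% to 56.3% of all regions in these 4 groups. The RUNX site TGTGGT was in 38.04% of the lung-most-open regions and 29.1% of all, and the GATA site AGATAA in 22.7% and 17.2%. Outside promoters these pairs were 39.3% and 33.0% for RUNX, 23.2% and 20.0% for GATA, and 23.6% and 21.2% for AP-1. The sets of pancreas, LI, BM, and SI held RUNX sites in 30.6%, 39.4%, 24.9%, and 43.6%. They held GATA sites in 31.4%, 20.8%, 29.5%, and 17.1%, so neither site was highest in the lung set. At the low end, the CTCF core CCACNAGG was in 6.28% and 8.58%, and the GC-rich SMAD site GGCGCC in 4.52% and 10.0%.

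ILC2 identity and effector genes, 30 in number with 334 regions, had 16 lung-most-open regions at 9 genes (4.79%, beside 2.16% of all regions). *Il1rl1* encodes ST2, the IL-33 receptor, which was also part of the gate in each tissue but SI. The region 8.22 kb from its TSS (chr1:40421097-40421597) had 223 and 557 in the lung libraries, 103 and 65.1 in pancreas, 28.8 and 27.5 in LI, 83.5 and 56.7 in BM, and 16.3 and 6.11 in SI. The lung libraries differed by more than 2-fold here, both lay above the others, and SI was the lowest tissue, below pancreas (log2 difference of pancreas over SI 2.98, adjusted p = 0.000786) and BM (log2 difference of SI over BM -2.68, adjusted p = 0.00118). A region 3.59 kb from the TSS of *Il13* had 398 and 589 in the lung libraries and between 109.8 and 238 in the other 8, and no contrast among the other tissues was called. *Bcl11b*, a transcription factor gene needed for ILC2 identity, had 4 of 24, all in intron 3, and at the first in margin the normalized read count was 492 and 622 in the lung libraries, 266 and 300.3 in pancreas, 231 and 203 in LI, 48.5 and 73.5 in BM, and 60.5 and 129.6 in SI, with pancreas above BM (log2 difference of pancreas over BM 2.22, adjusted p = 0.000234). *Rora* had 3 regions in intron 1, *Thy1* 2 upstream, and *Maf* 2 in an intron of *Wwox*. *Arg1* had 1 with 118 and 249.7 in the lung libraries and between 8.82 and 68.9 in the other 8, *Gata3* 1 at 194 kb from its TSS with 877 and 900.1 in the lung libraries and between 334 and 750.1 in the other 8, and *Il7r*, which encodes the CD127 of the gate, 1 with 132 and 230.1 in the lung libraries and between 27.8 and 108 in the other 8.

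Receptors of neuropeptides, catecholamines, and lipid mediators, with their partners, had 11 lung-most-open regions among 159 (6.92%, beside 2.16%). All 3 regions nearest to *Adrb1*, the β1-adrenergic receptor, were in the set, 34.6 to 38.6 kb from its TSS. The one with the highest lung mean had 105 and 165 in the lung libraries, 46.4 and 67.2 in pancreas, 57.6 and 48.9 in LI, 6.79 and 13.0 in BM, and 12.5 and 16.3 in SI, with pancreas and LI above BM (log2 difference of pancreas over BM 2.50, adjusted p = 0.00216 and log2 difference of LI over BM 2.43, adjusted p = 0.00174). *Ramp1* and *Calcrl*, which together form the receptor of the neuropeptide CGRP, had 1 and 3. At intron 2 of *Ramp1* (chr1:91202267-91202767) the normalized read count was 193 and 221 in the lung libraries, 80.8 and 118 in pancreas, 62.7 and 55.8 in LI, 9.70 and 22.3 in BM, and 20.2 and 10.2 in SI. Pancreas and LI stood between lung and the low values of BM and SI, with pancreas above BM (log2 difference of pancreas over BM 2.62, adjusted p = 0.000583) and SI (log2 difference of pancreas over SI 2.72, adjusted p = 0.00043). The strongest *Calcrl* region, in intron 2, had 423 and 353 in the lung libraries and between 117 and 279 in the other 8. *Vipr2*, a receptor of vasoactive intestinal peptide, had 3 of 12, among them 1 in intron 4 with 256 and 405 in the lung libraries, 47.5 and 96.6 in pancreas, 171 and 209 in LI, 28.1 and 22.3 in BM, and 104 and 179 in SI, where LI was above BM (log2 difference of LI over BM 2.95, adjusted p = 8.44e-05) and above pancreas (log2 difference of pancreas over LI -1.46, adjusted p = 0.0472). *Alox5ap*, whose product serves leukotriene synthesis, had 1 with 64.3 and 98.4 in the lung libraries and between 9.50 and 30.7 in the other 8.

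Of the alarmin and cytokine receptors, 7 of 192 regions were lung-most-open (3.65%, beside 2.16%), and those at *Il1rl1* and *Il7r* have been given. *Il18rap*, an IL-18 receptor subunit gene, had 2, and the one in intron 10 had 184 and 253 in the lung libraries, 102 and 124 in pancreas, 67.8 and 106 in LI, 27.2 and 35.3 in BM, and 20.2 and 20.4 in SI, with pancreas above BM (log2 difference of pancreas over BM 1.86, adjusted p = 0.00151) and LI above SI (log2 difference of LI over SI 2.12, adjusted p = 0.00175). *Il1r1* had 1 in intron 2 with 485 and 616 in the lung libraries and between 107 and 394 in the other 8, where LI was above pancreas (log2 difference of pancreas over LI -1.40, adjusted p = 0.0182), and *Il1r2* and *Ifngr2* had 1 each. Chemokine receptors and integrins had 7 of 271 regions (2.58%), close to the 2.16% of all regions, of which 3 of 23 were at *Cxcr4*. The *Cxcr4* region with the most reads had 1211 and 1492 in the lung libraries, 819 and 615 in pancreas, 539 and 741 in LI, 1053 and 982 in BM, and 347 and 275 in SI, where BM was close behind lung and above SI (log2 difference of SI over BM -1.69, adjusted p = 5.53e-05). Intron 1 of *Cx3cr1* had 982 and 1125 in the lung libraries and between 259 and 637 in the other 8 and intron 5 of *Cd44* 302 and 291 in the lung libraries and between 109 and 159 in the other 8.

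Nuclear receptor genes had 9 of 160 regions (5.63%, beside 2.16%), at *Vdr*, *Rora*, *Rara*, and *Nr1d1*. *Vdr*, the vitamin D receptor, had 2 in intron 1, and the first in margin had 205 and 232 in the lung libraries, 132 and 101 in pancreas, 102 and 97.8 in LI, 51.4 and 46.5 in BM, and 40.3 and 37.99 in SI, with pancreas above SI (log2 difference of pancreas over SI 1.57, adjusted p = 0.0016) and LI above BM (log2 difference of LI over BM 1.05, adjusted p = 0.014). *Rara*, a retinoic acid receptor, had 3 of 16, 1 of them at a promoter with 1103 and 1223 in the lung libraries and between 598 and 838 in the other 8. The genes of AP-1, NF-κB, NFAT, and immediate early factors had 4 of 322 regions (1.24%), below the share over all regions, at *Nfatc2* (2), *Bach2*, and *Egr3*.

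Genes with lung-specific mRNA in ILC2s had been listed from single-cell RNA, and not from these libraries. Of the 44 genes on this list, 27 had a region. *S100a8*, *S100a9*, and *Retnlg*, which are neutrophil markers here, are also on it. The listed genes had 173 regions, of which 10 were lung-most-open (5.78%, beside 2.16%). They were nearest to *Camk2n1* (4), *Ccl1* (2), *Arhgap31*, *Pdcd4*, *Smad7*, and *Scgb1a1*. The *Camk2n1* region 8.84 kb from the TSS had 619 and 943 in the lung libraries and between 219 and 362 in the other 8. The region assigned to *Scgb1a1*, the secretoglobin gene of airway club cells, lies 32.6 kb from it in intron 5 of *Ahnak*, with 463 and 591 in the lung libraries and between 139.7 and 392 in the other 8. Besides it, only *Krt8* and *Alas2* of the markers of other cell types were nearest to a lung-most-open region, at 8.62 and 35.9 kb, with 78.4 and 166 in the lung libraries and between 20.6 and 58.2 in the other 8 and 60.4 and 89.6 in the lung libraries and between 25.9 and 44.1 in the other 8. The airway and alveolar epithelium markers had 2 of 23 regions in the set (8.70%, beside 2.16%) and the erythroid markers 1 of 10 (10.0%). Whether other cells in the sorted pools had a part in these 3 regions was not tested.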

How the data were processed

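ATAC-seq libraries of sorted ILC2s from 5 tissues, 2 per tissue, were analysed. Per their methods, the authors checked reads with FastQC (0.11.9), mapped them to mm10 with Bowtie2 (2.2.9), kept uniquely mapped reads, converted the files with SAMtools (1.8), called peaks with MACS2 (2.1.1), kept peaks present in both replicates, and merged them with HOMER. The deposited raw counts of reads per region were made by the authors with bedtools multicov. The authors annotated regions with HOMER, which was not used here. Removal of duplicate reads and the Tn5 shift are not given in the sources used here. The reads carry no molecular identifiers, so counts are not independent molecules.

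Counts were tested as deposited with edgeR (4.0.16, R 4.3.3) by the quasi-likelihood test with TMM scaling, 1 mean per tissue over all 10 libraries, on 49981 regions, leaving out 58 without a count. P-values were adjusted by Benjamini-Hochberg. A p-value measures the spread between the 2 pools of each tissue. The fit was tested on simulated data before use. DESeq2 (1.42.0), other scalings, filters, a replicate block, and leaving out each library were tried as alternatives. The same-numbered libraries of different tissues correlated between -0.22 and 0.20 in their deviations from the tissue mean. This does not show whether they came from the same mice, and the main fit had no replicate block.

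Regions were annotated by the centre and the nearest TSS of curated RefSeq transcripts of GRCm38.p6, whose chromosome names and lengths match mm10, and motifs were read from that sequence with Python (3.11.15). The regions, lists, and motifs were chosen with earlier results of these data known. Named were the 20 largest margins, genes nearest to at least 3 of the regions, regions of the gene lists and of markers of other cells, the 10 with the highest lung mean, up to 10 promoters, and those next to the threshold. Regions with the palindrome, *Prox1*, and neighbours in chains were named after their values were seen.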

Additional observations from a re-analysis of the deposited data

How the results depend on the processing

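The number of lung-most-open regions was 1083 and lay between 1036 and 1085 with TMM scaling, with a pseudocount of 0.5 or 5, and with counts thinned to the smallest library, which shared 863 regions with the set. It was 2137 with library size alone (1078 shared), 2516 with a margin of at least 0, 378 with 0.5, and 67 with 1, and 2166 against the highest mean of another tissue, a setting chosen after seeing the data. The margin settings and the last one differ by their construction, and for library size alone the cause was not tested. Library size alone also shifted the median log2 difference of all regions to -0.30 for pancreas over SI, -0.26 for LI over SI, and 0.20 for SI over BM. Leaving out each library in turn gave 1156 to 2372 regions. The rule is easier to pass with fewer libraries, so these numbers, all above 1083, say little about stability. The share at promoters was 6.37%, and 10.3% with library size alone, 2.65% with a margin of at least 0.5, 9.70% with a promoter of 1000 bp on both sides of the TSS (27.4% of all regions), 12.4% with GENCODE genes (27.2% of all regions), and 5.89% to 8.93% without each library in turn. It was below the share of all regions in each of these. Without each library in turn, with the lone library assumed to vary like the others, the calls among the lung-most-open regions numbered 133 to 345 between pancreas and BM, 3 to 75 between pancreas and LI, 204 to 328 between pancreas and SI, 177 to 357 between LI and BM, 95 to 180 between LI and SI, and 191 to 307 between SI and BM. At an unadjusted p under 0.05 the calls were 203 between pancreas and LI and 365 between LI and SI. With the replicate number as a block, in place of no pairing, they were 286, 45, 334, 305, 189, and 302 in the order above, and DESeq2 gave 292, 67, 346, 311, 213, and 315. Depth limits the weakest regions, since the lowest count at a lung-most-open region was 48 in lung replicate 1 and 2 in BM replicate 1 and SI replicate 2.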

Other observations

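After sequences with the SMAD palindrome GTCTAGAC were seen, the letters AGGAAG, the core of ETS sites, or their reverse complement were counted within 10 bp of it. They were there in 6 of the 34 lung-most-open regions with the palindrome (17.6%), among them those at *Olfr9*, *Zfp706*, and *Chst2*, and in 1 of the other 153 regions with it (0.654%). The count was prompted by these sequences, so it is given as a description without a test. Of the 109 regions that held the palindrome and at least 1 CAGAC box, 23 were lung-most-open (21.1%).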
